A study of Mus musculus with 48 samples.

Results

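Collagens are the triple-helical proteins of the extracellular matrix, and each gene encodes 1 alpha chain. The genes described here are all rows of a raw count table whose mouse symbol is Col, a number, the letter a and a number, with nothing after it. The rule uses names and no measured value, and it found 44 genes among 55487 rows. They comprise 11 fibrillar collagens, 6 chains of the basement membrane network (collagen IV), 9 fibril-associated collagens, 6 chains of the microfibril-forming collagen VI, the 2 multiplexins (collagens XV and XVIII), 3 short-chain network collagens, 4 transmembrane collagens and 3 others.

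RNA was sequenced from kidney slices of male mice of 2 inbred strains, C57BL/6J and DBA/2J, kept ex vivo. Each of the 16 groups held 3 libraries, 48 in all. In each strain, slices were left as controls or given tunicamycin, a blocker of N-glycosylation, or cyclosporin A, a calcineurin inhibitor, for 6 h or 24 h. A normoxia arm (labelled as an ischemia model) and a normoxia-hyperoxia arm (labelled as a reperfusion model) were kept for 24 h and are set here against the 24 h and the 6 h controls. Drug doses, the oxygen level of the controls and the time of the switch to hyperoxia are not given in the labels. Replicates are numbered as biological replicates, with no word on whether the slices of different groups came from the same mouse, so the p-values measure the spread between these libraries.

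Collagen IV chains assemble in defined trimers. Chains alpha 1 and alpha 2 form the network found in nearly all basement membranes, while alpha 3, alpha 4 and alpha 5 form the network of the mature glomerular basement membrane, laid down by podocytes, and of some tubular basement membranes. Collagens I, III and V form the fibrils of the kidney interstitium and vessel walls, collagen VI forms beaded microfibrils beside cells, and collagens XV and XVIII lie at the interface of basement membrane and stroma. Chains must be hydroxylated and folded in the endoplasmic reticulum before secretion and are cross-linked outside the cell.

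The libraries held 5619309 to 25137581 counted reads. The lowest was 1 DBA/2J normoxia-hyperoxia library, and the next held 12384733. Levels are given as CPM, the counts of a gene scaled by the total of its library. No gene of the 7 cell type marker lists was at 0 in any group. Since a slice holds all kidney cell types, fewer cells of a type and less RNA per cell cannot be told apart in these data. Of the 44 collagen genes, 31 passed the low-count filter in every fit that uses all 12 libraries, 7 passed it in some of these fits and 6 (Col2a1, Col9a1, Col9a2, Col10a1, Col11a1 and Col22a1) in none. These 6 had at most 14 counts in any library. A member that passed only some fits did so partly through the groups in which it was high.

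In 3 DBA/2J libraries the interstitial collagens stood far above the other libraries of their group. Col1a1, the alpha 1 chain of collagen I, was at 102 CPM in replicate 1 of the DBA/2J 6 h controls, against 11.9 and 14.2 in the other libraries. It was at 61.5 CPM in replicate 1 of the DBA/2J 24 h tunicamycin group, against 5.98 and 9.48, and at 57.2 CPM in replicate 3 of the DBA/2J 24 h cyclosporin A group, against 8.05 and 5.14. These libraries held 6.49 to 7.17 times the next highest Col1a1 level of their group. Col3a1, Col5a2 and Col12a1 were high in the same libraries, while Col4a1 was not: in the 6 h controls it was at 872, 773 and 815 CPM. The 8 fibroblast and pericyte markers summed to 315 CPM in the 6 h control library against 228 and 239, to 336 against 138 and 240, and to 231 against 155 and 110 CPM. What set these libraries apart was not tested. For comparisons that rest on the 6 h controls, the counts of all collagen genes are therefore also given without DBA/2J control replicate 1. So are the values that this library moved most. Counts by collagen class, of genes without overlap between libraries and of other gene lists include it.

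**Figure D1:**
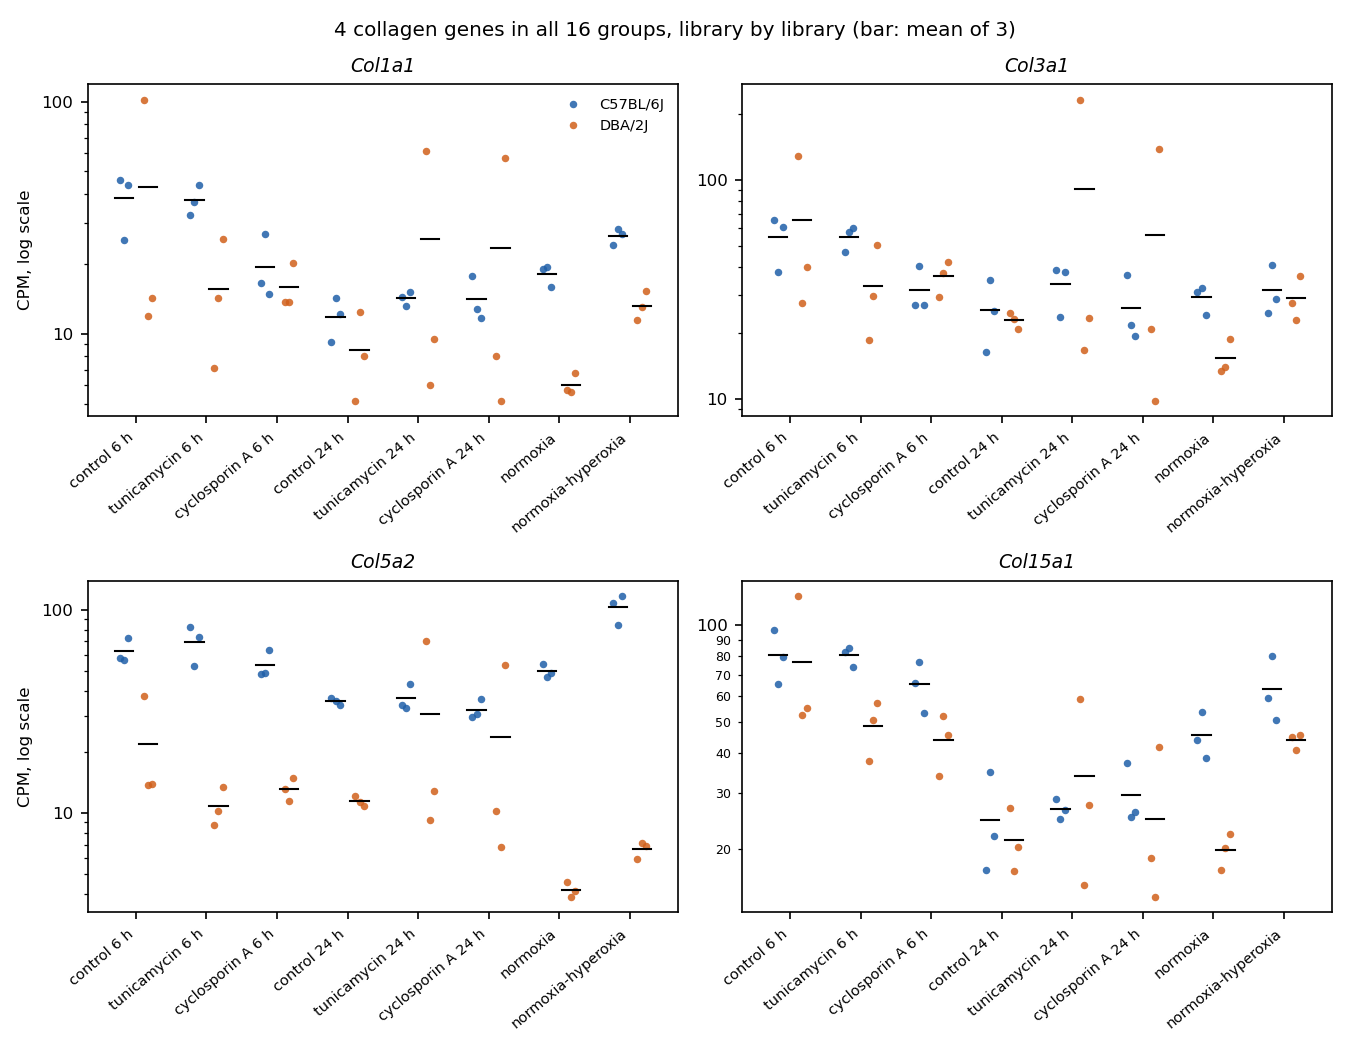
Level of Col1a1, Col3a1, Col5a2 and Col15a1 in all 48 libraries (y axis: CPM on a log scale; x axis: 8 treatments; blue, C57BL/6J; orange, DBA/2J; bar, mean of 3 libraries). The 3 DBA/2J libraries with Col1a1 at 102, 61.5 and 57.2 CPM stand above the other libraries of their groups, and Col5a2 lies lower in DBA/2J than in C57BL/6J in the control, normoxia and normoxia-hyperoxia groups.

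Per kilobase of exon, basement membrane collagens dominated the slices. The mean over all 48 libraries was 100 CPM per kb for Col4a1, 80.3 for Col18a1, whose C-terminal fragment is endostatin, and 69.6 for Col4a2. Col4a4 and Col4a3 followed at 23.2 and 22.9 CPM per kb, Col14a1 at 10.2, Col15a1 at 7.17 and Col4a5 at 6.53. Among fibrillar chains, Col1a2 had 4.79, Col3a1 4.05, Col5a2 3.69, Col27a1 3.61 and Col1a1 3.15 CPM per kb, and the ranges of these 5 genes over libraries overlapped. The order differed between groups: in DBA/2J normoxia Col4a4, at 41.9 CPM per kb, stood above Col4a1 at 38.9 and Col4a2 at 29.6, and in C57BL/6J 24 h controls Col4a2, at 112, stood above Col18a1 at 99.7. In 6 h controls, the collagen IV chains took 57.2% ± 2.01 (SD, n = 3) of all reads counted on collagen genes in C57BL/6J and 60.9% ± 6.45 in DBA/2J. The multiplexins took 22.2% ± 1.61 and 18.3% ± 0.18, and the fibrillar collagens 11.6% ± 1.92 and 9.25% ± 4.03.

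The 44 genes together held 2820 ± 107 CPM (SD, n = 3) in the 6 h controls of C57BL/6J and 3490 ± 503 CPM in those of DBA/2J. In 24 h controls the sums were 3230 ± 284 and 2870 ± 182 CPM. They were lowest under normoxia, at 1760 ± 109 and 2020 ± 326 CPM, and stood at 2560 ± 117 and 2570 ± 368 CPM under normoxia-hyperoxia. No normoxia library of C57BL/6J overlapped the controls of either time, and the highest DBA/2J normoxia library, at 2370 CPM, lay below the lowest DBA/2J 24 h control, at 2720 CPM. The totals include mitochondrial genes, whose share was 15.4% and 8.16% at 6 h, 6.82% and 3.52% at 24 h, 23.9% and 12.3% under normoxia and 14.1% and 13.7% under normoxia-hyperoxia in C57BL/6J and DBA/2J. With totals that leave these genes out, the collagen sums were 3340 and 3810 CPM at 6 h, 3470 and 2970 CPM at 24 h, 2310 CPM in both strains under normoxia, and 2980 and 2970 CPM under normoxia-hyperoxia. With totals scaled by TMM factors, the kind of scaling used for the fold changes, they were 3140 and 3460 CPM at 6 h and 3000 and 2590 CPM at 24 h. The C57BL/6J sum was then lower at 24 h than at 6 h. Under normoxia these sums were 1900 and 2160 CPM, and under normoxia-hyperoxia 2730 and 2580 CPM.

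**Figure D2:**
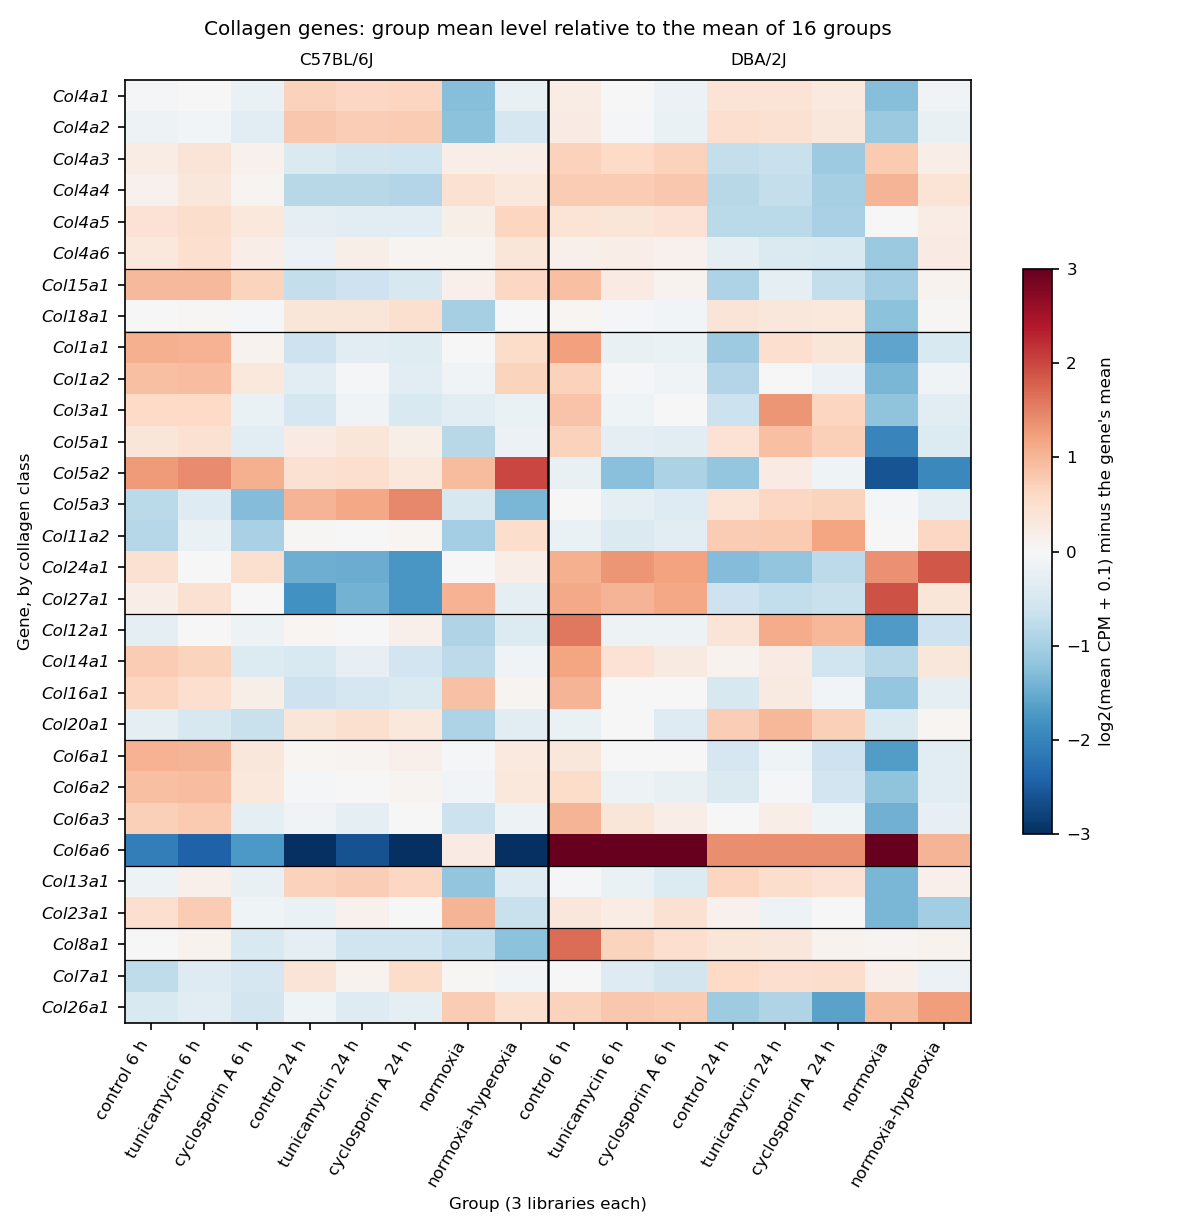
Group means of the 30 collagen genes with a mean of at least 1 CPM (rows, by class; columns, the 16 groups). Colour gives log2(mean CPM + 0.1) minus the gene's mean over groups and saturates at 3 in either direction; Col4a1 and Col4a2 are low under normoxia in both strains while Col4a3 and Col4a4 are low in 24 h controls, and Col6a6 separates the strains.

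The genes of collagen IV lie in pairs that point away from each other. Col4a1 (chr8:11198423-11312826, minus strand) and Col4a2 (chr8:11312805-11449287, plus strand) have start sites 21 bases apart. Col4a3 (chr1:82586921-82722059, plus strand) and Col4a4 (chr1:82448423-82586849, minus strand) start 72 bases apart. Col4a5 (chrX:141475385-141689234, plus strand) and Col4a6 (chrX:141165403-141474076, minus strand) start 1309 bases apart. All coordinates are of GRCm38. Sequences beside these start sites are shown because the 2 genes of each pair start near each other. The Col4a2 stretch lies before the start of Col4a2 and inside the first transcribed part of Col4a1, the Col4a4 stretch lies between the starts of its pair, and the Col4a5 and Col4a6 stretches lie before their own starts. They come from RefSeq promoter windows of GRCm38.p6. Each is written 5′ to 3′ on its gene's strand, with capitals marking CCAAT boxes (CCAAT) and GC boxes (GGGCGG) on either strand.
Col4a2, chr8:11312753-11312782, plus strand: cgcgCCGCCCgaggagctccCCAATttgtt
Col4a4 to Col4a3, chr1:82586850-82586920, minus strand: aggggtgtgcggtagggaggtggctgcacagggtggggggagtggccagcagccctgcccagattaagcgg
Col4a5, chrX:141475169-141475384, plus strand: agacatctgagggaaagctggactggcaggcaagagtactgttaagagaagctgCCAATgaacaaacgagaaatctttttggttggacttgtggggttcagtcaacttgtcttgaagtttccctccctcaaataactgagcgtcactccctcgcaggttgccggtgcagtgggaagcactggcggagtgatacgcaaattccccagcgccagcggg
Col4a6, chrX:141474077-141474326, minus strand: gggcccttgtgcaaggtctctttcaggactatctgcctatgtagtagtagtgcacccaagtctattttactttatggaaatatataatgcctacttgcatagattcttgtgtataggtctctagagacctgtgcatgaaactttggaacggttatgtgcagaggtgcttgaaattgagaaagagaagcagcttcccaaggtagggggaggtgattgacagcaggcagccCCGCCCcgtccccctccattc

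Windows of 250 bases before to 50 after a start were matched for 35 of the 44 genes, as 38 windows. A GC box was in 23 of these (60.5%), against 35.7% of all 32851 windows, a CCAAT box in 13 (34.2%, against 37.4%), and ACGTG, the core letters of hypoxia response elements, in 5 (13.2%, against 19.6%). Each motif was searched on both strands and overlaps between motifs were left in. A match is a description of letters, not a binding site.

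Most collagen genes differed between the control times. Between 24 h and 6 h controls, with both strains in 1 edgeR quasi-likelihood fit, 30 of 34 tested collagen genes passed a Benjamini-Hochberg adjusted p of 0.05: 9 rose and 21 fell. Of all 16962 genes tested, 34.7% rose and 37.4% fell. The median log2 fold change was -1.05 for the collagen genes and -0.02 for all genes. In 16 of the 34 genes every 24 h library lay below every 6 h library within both strains, which held for 20.6% of all genes tested. Without DBA/2J 6 h control replicate 1, 9 rose and 21 fell of 35 tested, with a median of -0.8.

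The chains of collagen IV parted along their pairs. Col4a1 was at 659, 711 and 674 CPM in C57BL/6J 6 h controls and at 1010, 1270 and 1100 CPM at 24 h. In DBA/2J the levels were 872, 773 and 815 CPM at 6 h and 938, 1010 and 851 CPM at 24 h. The C57BL/6J groups did not overlap, while those of DBA/2J did. Over both strains Col4a1 rose by a log2 fold change of 0.24 (SE 0.0759, edgeR adjusted p = 0.0104). Col4a2 went from 369, 405 and 377 to 647, 837 and 743 CPM in C57BL/6J libraries, and from 565, 472 and 487 to 633, 666 and 509 CPM in DBA/2J. It rose by 0.39 (SE 0.0873, adjusted p = 0.00107). By strain, the rise passed the test in C57BL/6J (0.45 and 0.68 for Col4a1 and Col4a2) and not in DBA/2J (0.03 and 0.09), and the difference between strains did not pass it.

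Col4a3, Col4a4 and Col4a5 went the other way. Col4a3 was at 260, 226 and 254 CPM in C57BL/6J 6 h controls against 166, 145 and 158 CPM at 24 h, and at 322, 357 and 353 against 104, 160 and 122 CPM in DBA/2J. Col4a4 was at 265, 207 and 252 against 124, 124 and 124 CPM in C57BL/6J libraries, and at 355, 394 and 375 against 110, 135 and 125 CPM in DBA/2J. Col4a5 was at 55.9, 52.4 and 58.5 against 36.2, 33.1 and 31.8 CPM, and at 57.8, 50.5 and 56.7 against 20, 26.1 and 24.7 CPM. In all 3 genes, every 24 h library lay below every 6 h library of its strain. Col4a3 fell by 1.25 on the log2 scale (SE 0.0891, edgeR adjusted p = 1.28e-08), Col4a4 by 1.49 (SE 0.0707, adjusted p = 3.11e-10) and Col4a5 by 1.18 (SE 0.0732, adjusted p = 3.15e-09). Col4a6, the partner of Col4a5 and the weakest chain, had 2.9 to 4.52 CPM in the 6 h and 1.61 to 4.11 CPM in the 24 h controls and fell by 0.7 (adjusted p = 0.00475).

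Under normoxia Col4a1 and Col4a2 parted from Col4a3, Col4a4 and Col4a5 in the opposite order. Between normoxia and 24 h controls, 24 of 33 tested collagen genes passed the test, 10 higher and 14 lower, beside 42.4% and 39.7% of all 17375 genes. The median log2 fold change was -0.13, against 0.05 for all genes. The same 24 h controls enter this comparison, the comparison of control times and that of normoxia-hyperoxia, so opposite signs between them are not independent. Col4a1 was at 275, 324 and 262 CPM under normoxia in C57BL/6J and 225, 281 and 364 CPM in DBA/2J, and Col4a2 at 177, 202 and 166 and at 157, 185 and 245 CPM. All 6 normoxia libraries of both genes lay below all control libraries of either time. The log2 fold change against 24 h controls was -1.56 for both, a 2.94-fold drop in each, with edgeR adjusted p-values of 1.89e-09 for Col4a1 and 5.99e-09 for Col4a2.

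Col4a3, Col4a4 and Col4a5 rose over the same comparison. Col4a3 reached 242, 258 and 229 CPM in C57BL/6J libraries and 312, 365 and 411 CPM in DBA/2J. Col4a4 reached 312, 292 and 308 CPM and 398, 436 and 498 CPM, above every 6 h control library of its strain. Col4a5 reached 44.4, 48.9 and 46.8 CPM and 37.7, 39.4 and 47.6 CPM, between its 24 h and 6 h controls. The log2 fold changes were 1.34 (SE 0.0946, edgeR adjusted p = 4.55e-09) for Col4a3, 1.84 (SE 0.065, adjusted p = 3.97e-13) for Col4a4 and 0.92 (SE 0.0758, adjusted p = 1.22e-08) for Col4a5. Col4a6 was at 3.06, 3.76 and 4.03 CPM in C57BL/6J libraries and 1.47, 0.886 and 2.19 CPM in DBA/2J under normoxia, with a log2 fold change of -0.02 (adjusted p = 0.941).

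Podocyte markers moved differently from these chains under normoxia. The 6 markers (among them nephrin and podocin) summed to 2200 to 2340 CPM in C57BL/6J libraries and 1610 to 1840 CPM in DBA/2J 6 h controls, to 1460 to 1730 and 772 to 1170 CPM at 24 h, and to 938 to 1220 and 511 to 687 CPM under normoxia. All 6 fell at 24 h, beside 37.4% of all genes. Under normoxia 4 fell further and none rose, beside 39.7% of all genes that fell and 42.4% that rose. Distal nephron and collecting duct markers, a list of 6, all fell at 24 h and all rose under normoxia. Their sums were 12500 to 13800, 2920 to 5550 and 12300 to 17200 CPM in C57BL/6J libraries, and 7570 to 9900, 2390 to 4990 and 4400 to 5600 CPM in DBA/2J. The part of either cell type in the collagen IV levels was not tested.

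Normoxia-hyperoxia gave 26 called collagen genes of 33 tested against 24 h controls, 15 higher and 11 lower, beside 34.1% and 34.1% of all 17256 genes. The median was 0.47, against 0.0 for all genes. Col4a1 (536, 667 and 612 CPM in C57BL/6J libraries, 549, 614 and 805 CPM in those of DBA/2J) fell by 0.53 (SE 0.0975, edgeR adjusted p = 0.00019) and Col4a2 (256, 353 and 295, and 316, 351 and 427 CPM) by 0.84 (SE 0.104, adjusted p = 5.29e-06). Col4a3 (251, 234 and 240, and 197, 262 and 277 CPM) rose by 0.94, Col4a4 (280, 253 and 291, and 274, 297 and 303 CPM) by 1.36, Col4a5 (62.8, 64.7 and 66.2, and 39.6, 55.2 and 51.1 CPM) by 1.15 and Col4a6 (4.1, 4.69 and 4.54, and 3.79, 3.03 and 5.47 CPM) by 0.76. Podocyte markers summed to 1920 to 2380 CPM in C57BL/6J libraries and 1280 to 2290 CPM in DBA/2J in this arm, and 5 of 6 rose against 24 h controls, with a median log2 fold change of 0.95. All 6 distal nephron and collecting duct markers rose, with a median of 1.96. Their part in the collagen IV levels was not tested.

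The arms shared their 24 h controls, so they were also set against each other. Between normoxia-hyperoxia and normoxia, 27 of 35 tested collagen genes passed, 20 higher and 7 lower under normoxia-hyperoxia, beside 37% and 36.5% of 17228 genes. The median was 0.72, against 0.02 for all genes. Col4a1 was 1.04 higher on the log2 scale (edgeR adjusted p = 1.89e-06) and Col4a2 0.73 higher (adjusted p = 4.72e-05). Col4a3 was lower, with a log2 fold change of -0.37 (adjusted p = 0.000721), as was Col4a4, with -0.47 (adjusted p = 7.74e-06). The largest positive differences were those of Col9a3, at 3.03, Col13a1, at 1.11, and Col5a1 and Col11a2, at 1.07 each. Col9a3 had 0 to 6 counts under normoxia and 9 to 28 under normoxia-hyperoxia, so its fitted value depends on the prior count. Cell type markers differed between these arms too: 6 of 6 myofibroblast, 6 of 6 podocyte and 6 of 7 endothelial markers were higher under normoxia-hyperoxia, with median log2 fold changes of 1.29, 1.24 and 0.92, and 7 of 7 proximal tubule markers were lower, with a median of -4.68. Their part in the collagen levels was not tested.

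A ratio of levels per kilobase within each library summarises the split. The sum of Col4a1 and Col4a2 over the sum of Col4a3, Col4a4 and Col4a5 was 2.43, 3.13 and 2.54 in C57BL/6J 6 h controls and 2.72, 2.17 and 2.31 in DBA/2J. At 24 h it was 6.9, 9.5 and 8.05 and 9.28, 7.2 and 6.9. Under normoxia it was 1.05, 1.22 and 1.02 and 0.725, 0.784 and 0.901. In DBA/2J the sum of Col4a3, Col4a4 and Col4a5 thus outweighed that of Col4a1 and Col4a2. Under normoxia-hyperoxia the ratio was 1.81, 2.5 and 2.07 and 2.36, 2.17 and 2.7, within the range of the 6 h controls in DBA/2J and, in 2 of 3 libraries, below it in C57BL/6J. Ratios within a pair had narrower ranges for the close pairs: Col4a1 over Col4a2 ranged from 1.27 to 1.85 over all 48 libraries and Col4a4 over Col4a3 from 0.703 to 1.31. Col4a5 over Col4a6 ranged from 7.53 to 52.8. Col4a6 has few counts, and the highest ratio comes from a DBA/2J normoxia library with 17.

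**Figure D3:**
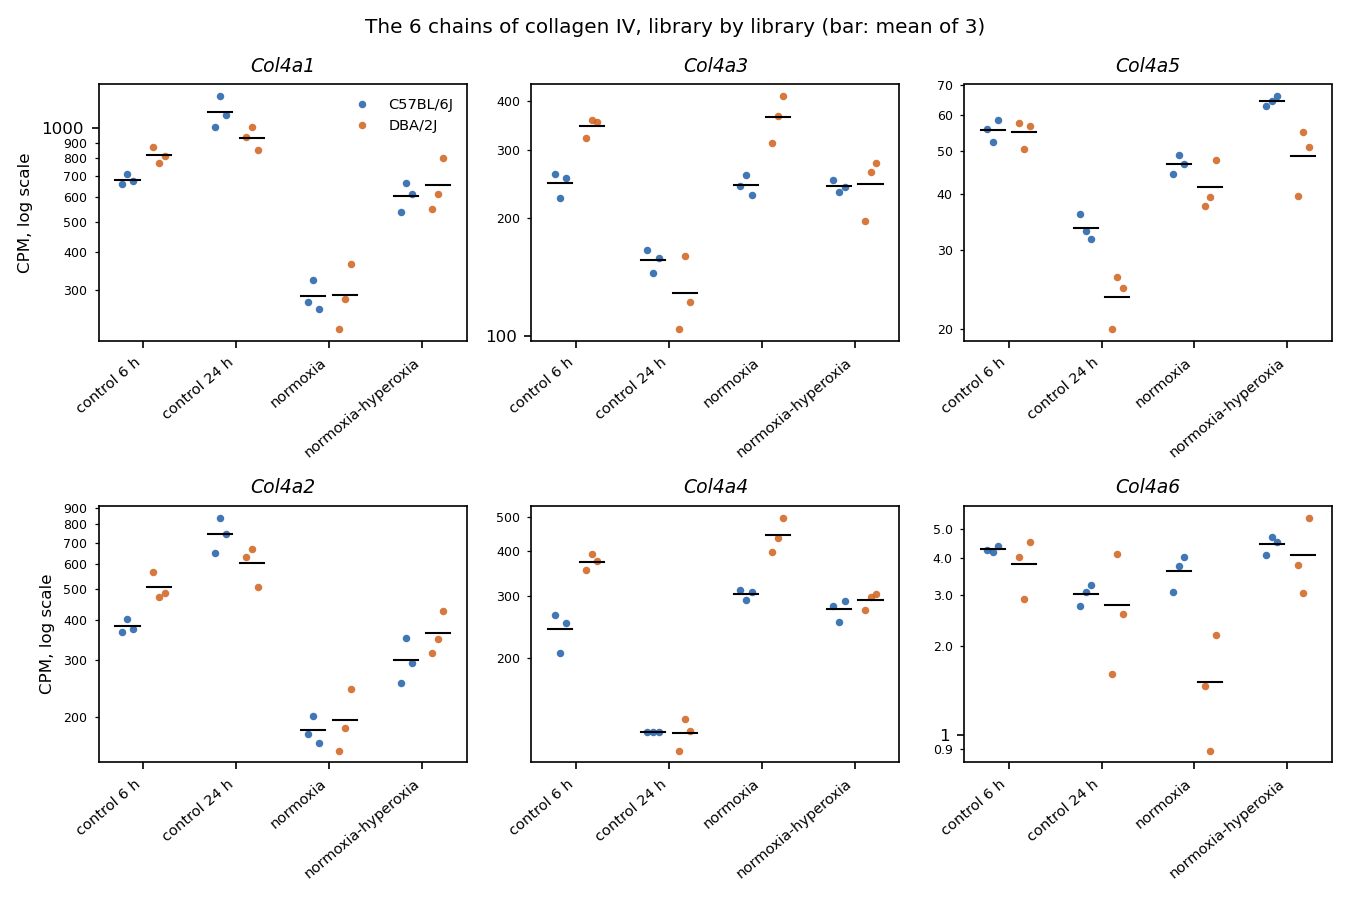
The 6 chains of collagen IV in controls, normoxia and normoxia-hyperoxia (y axis: CPM on a log scale; each point 1 library; blue, C57BL/6J; orange, DBA/2J; bar, mean of 3). Col4a1 and Col4a2 are lowest under normoxia, while Col4a3, Col4a4 and Col4a5 are lowest in the 24 h controls.

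Col18a1 was lowest under normoxia, as were Col4a1 and Col4a2. It was at 515, 584 and 539 CPM in C57BL/6J libraries and 614, 523 and 546 CPM in DBA/2J 6 h controls, and at 693, 705 and 702 and 638, 752 and 729 CPM at 24 h, a log2 difference of 0.13 that did not pass the test (edgeR adjusted p = 0.102). The test used TMM factors, and library totals as the only scaling moved the all-gene median for time from -0.02 to 0.19. In CPM, which use library totals, Col18a1 was higher in every 24 h than in every 6 h library of its strain. Under normoxia it was at 268, 289 and 254 and at 192, 219 and 274 CPM, below every control library, and fell by 1.23 against 24 h (SE 0.0767, adjusted p = 3.65e-10). Under normoxia-hyperoxia it was at 560, 489 and 582 and at 504, 517 and 643 CPM and fell by 0.19 (adjusted p = 0.0355). The 7 endothelial markers summed to 1540 to 1910 CPM in C57BL/6J libraries and 1020 to 1410 CPM in DBA/2J at 6 h, 1170 to 1540 and 713 to 1150 CPM at 24 h, 914 to 1270 and 464 to 752 CPM under normoxia, and 1420 to 1970 and 1430 to 2020 CPM under normoxia-hyperoxia. Against 24 h controls 3 rose and 3 fell under normoxia, beside 42.4% and 39.7% of all genes. The part of endothelial cells in the levels of Col4a1, Col4a2 and Col18a1 was not tested.

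Col15a1, the other multiplexin, fell between the control times. It was at 96.1, 65.7 and 79.5 CPM in C57BL/6J 6 h controls against 17.3, 34.9 and 22 CPM at 24 h, and at 123, 52.3 and 55 against 26.9, 17.1 and 20.4 CPM in DBA/2J, with no overlap in either strain. It fell by 1.98 (SE 0.253, edgeR adjusted p = 2.45e-05), or by 1.72 without DBA/2J 6 h control replicate 1. Against 24 h controls it rose by 0.65 under normoxia (adjusted p = 0.00486), at 43.8, 53.7 and 38.6 CPM in C57BL/6J libraries and 17.3, 20.2 and 22.3 CPM in DBA/2J. The DBA/2J normoxia libraries overlapped their 24 h controls. Under normoxia-hyperoxia it rose by 1.36 (adjusted p = 4.73e-05), at 59.1, 80 and 50.5 and at 44.7, 40.9 and 45.5 CPM.

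Of 9 fibrillar collagens tested between the control times, 6 fell and 2 rose, beside 37.4% and 34.7% of all genes. Col1a1 was at 45.9, 25.2 and 43.9 CPM in C57BL/6J 6 h controls against 9.16, 14.2 and 12.1 CPM at 24 h, and at 102, 11.9 and 14.2 against 5.15, 12.4 and 7.98 CPM in DBA/2J. The C57BL/6J groups did not overlap, and the DBA/2J groups did. Col1a1 fell by 2.22 (SE 0.534, edgeR adjusted p = 0.00338). Without DBA/2J 6 h control replicate 1 it fell by 1.37 over both strains (adjusted p = 0.000274), and in DBA/2J alone the log2 fold change was -0.78 (adjusted p = 0.0777), so that the fall in DBA/2J rested on that library.

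Col1a2, which pairs with Col1a1 in collagen I, was at 122, 79.6 and 108 against 40.4, 44.6 and 47.3 CPM in C57BL/6J libraries and at 159, 46.5 and 60 against 24.7, 30 and 34.5 CPM in DBA/2J. Neither strain's groups overlapped, and it fell by 1.62 (edgeR adjusted p = 0.000253), or by 1.26 without that library. Col3a1, the chain of collagen III, was at 65.5, 38.2 and 61 against 16.5, 34.8 and 25.3 CPM in C57BL/6J libraries and at 129, 27.6 and 40 against 24.7, 23.1 and 21 CPM in DBA/2J. It fell by 1.52 (adjusted p = 0.00334), or by 1.05 without that library. In DBA/2J alone the value without it was -0.72 (adjusted p = 0.0616).

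Other fibrillar chains went separate ways. Col5a2 fell by 1.09 (edgeR adjusted p = 0.000916), or by 0.76 without DBA/2J 6 h control replicate 1. Col24a1 fell by 2.59 (adjusted p = 4.26e-07) and Col27a1 by 2.1 (adjusted p = 1.09e-07); both are developmental fibrillar collagens known from bone and cartilage. Col5a3 rose by 0.94 (adjusted p = 0.00112), from 3.95 to 5.02 CPM in C57BL/6J to 8.46 to 20.2 CPM, while the DBA/2J controls, 7.56 to 7.99 CPM at 6 h and 7.04 to 12.3 CPM at 24 h, overlapped. Col11a2 rose by 0.77 (adjusted p = 0.00717). Col5a1 had a log2 difference of -0.39 that did not pass the test (adjusted p = 0.101), and -0.13 without DBA/2J 6 h control replicate 1 (adjusted p = 0.295).

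The 8 fibroblast and pericyte markers moved in part with these chains. None rose and 5 fell at 24 h, beside 34.7% of all genes that rose and 37.4% that fell. Their sum went from 233 to 302 CPM to 168 to 202 CPM in C57BL/6J libraries. In DBA/2J it went from 228 to 315 CPM to 171 to 193 CPM. Their median log2 fold change was -0.64. Of 6 myofibroblast and smooth muscle markers 1 rose and 2 fell, and of 5 tested leukocyte markers 1 rose and 3 fell. Their part in the collagen result was not tested.

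Over both strains, no collagen I or III gene passed the test for normoxia against 24 h controls. The log2 differences were 0.33 for Col1a1 (edgeR adjusted p = 0.103), 0.14 for Col1a2 (adjusted p = 0.323) and 0.08 for Col3a1 (adjusted p = 0.646). Col1a1 was at 19, 19.3 and 15.9 CPM in C57BL/6J libraries and 5.69, 5.63 and 6.77 CPM in DBA/2J, Col1a2 at 53.4, 57.3 and 42.4 and at 16.6, 18.9 and 28.4 CPM, and Col3a1 at 30.9, 32.3 and 24.1 and at 13.5, 14.1 and 18.9 CPM. Col1a1 lay above its 24 h controls in every C57BL/6J library, where it rose by 0.83, and within their range in DBA/2J. With library totals as the only scaling, the values of Col1a2 and Col3a1 changed sign, to -0.13 and -0.19.

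Col24a1 and Col27a1 rose under normoxia, by 2.57 (edgeR adjusted p = 2.43e-08) and 2.96 (adjusted p = 1.07e-10). Col27a1 went from 7.81, 14.1 and 8.96 CPM to 82.9, 68.4 and 73 CPM in C57BL/6J libraries and from 26.7, 20.7 and 22.9 to 128, 139 and 140 CPM in DBA/2J, with no overlap. Col5a1 fell by 1.5 (adjusted p = 1.41e-07), Col5a3 by 0.71 (adjusted p = 0.0202), Col11a2 by 0.67 (adjusted p = 0.0314) and Col5a2 by 0.2 (adjusted p = 0.0181). The value of Col5a2 averages opposite changes in the strains, described with the strain differences.

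Under normoxia-hyperoxia most fibrillar chains rose against 24 h controls. Of 9 fibrillar genes, 6 rose and 2 fell, beside 34.1% and 34.1% of all genes. Col1a1, at 24.2, 28.2 and 27 CPM in C57BL/6J libraries and 11.4, 13 and 15.2 CPM in DBA/2J, rose by 1.07 (SE 0.179, edgeR adjusted p = 0.000148). It lay above every 24 h control in C57BL/6J, while in DBA/2J its lowest library was below the highest control, at 12.4 CPM. Col1a2, at 88.3, 80.4 and 93.5 and at 42.1, 44.3 and 67.9 CPM, rose by 1.07 (SE 0.116, adjusted p = 2.49e-06). Col3a1, at 24.8, 40.9 and 28.5 and at 27.5, 23 and 36.5 CPM, rose by 0.5 (adjusted p = 0.0346), though its libraries overlapped the 24 h controls in both strains. Col24a1 rose by 2.81 and Col27a1 by 1.42, while Col5a3 fell by 1.41 and Col5a1 by 0.45. Col5a2, at 0.54 over both strains, averages a rise of 1.73 in C57BL/6J and a change of -0.64 in DBA/2J. In the same comparison 3 of 6 myofibroblast, 4 of 7 endothelial and 5 of 6 leukocyte markers rose and 1 of each list fell. Of 8 fibroblast and pericyte markers 2 rose and 1 fell, with a median of -0.1. The part of these markers was not tested. Against 6 h controls Col1a1 had a log2 difference of -0.28 that did not pass the test without DBA/2J 6 h control replicate 1 (adjusted p = 0.138).

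Between the control times 4 of 5 tested collagen VI chains fell and none rose, and of 6 tested fibril-associated collagens 3 fell and 2 rose, beside 37.4% of all genes that fell and 34.7% that rose. Col6a1 fell by 1.13, Col6a2 by 1.19 and Col6a3 by 1.14, with edgeR adjusted p-values of 9.6e-05, 0.00013 and 0.000275. They fell by 0.98 (Col6a1), by 0.95 (Col6a2) and by 0.95 (Col6a3) without DBA/2J 6 h control replicate 1. In C57BL/6J, Col6a3 was at 42.6, 26.7 and 41.1 CPM at 6 h and 15.3, 26.5 and 20.5 CPM at 24 h. Col14a1, a collagen that binds fibril surfaces, fell by 1.35 (adjusted p = 8.54e-05) and Col16a1 by 1.61 (adjusted p = 3.1e-05), or by 1.26 and by 1.37 without that library. Col12a1 had a difference of -0.65 (adjusted p = 0.258) that changed sign to 0.23 (adjusted p = 0.0846) without DBA/2J 6 h control replicate 1, in which it stood at 154 CPM against 17.8 and 19.3. Col20a1 rose by 0.58 (adjusted p = 0.00385), and the low-count genes Col9a3 and Col17a1 rose by 1.01 and 1.79. Col17a1, a hemidesmosome collagen of epithelia, had 0 to 17 counts in the 6 h and 4 to 26 counts in the 24 h control libraries.

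Under normoxia Col6a1 fell by 0.39 and Col6a3 by 0.72 against 24 h controls, Col12a1 by 1.27 and Col20a1 by 0.98, and Col16a1 rose by 0.68. The largest falls were those of the low-count genes Col9a3, by 2.42, and Col17a1, by 2.17. Col6a2 (-0.13) and Col14a1 (-0.37) did not pass the test. Of 6 myofibroblast and smooth muscle markers 0 rose and 4 fell in this comparison, with a median of -0.92. Of 8 fibroblast and pericyte markers 2 rose and 3 fell, beside 42.4% and 39.7% of all genes. The part of these cells was not tested. Under normoxia-hyperoxia Col6a1 rose by 0.39, Col6a2 by 0.43 and Col16a1 by 0.64, and Col12a1 fell by 0.57, Col20a1 by 0.51 and Col17a1 by 1.13. Col6a3 (0.03) and Col14a1 (0.47) did not pass. Of the lower-abundance classes, Col13a1, a transmembrane collagen, rose by 0.55 at 24 h and fell by 1.69 under normoxia and by 0.6 under normoxia-hyperoxia. Col23a1, also transmembrane, fell by 0.7 at 24 h and by 0.8 under normoxia-hyperoxia. Col8a1, a short-chain collagen of vessels, fell by 1.01 at 24 h, or by 0.8 without DBA/2J 6 h control replicate 1. Col7a1, the anchoring fibril collagen, rose by 0.7 at 24 h and fell by 0.49 under normoxia-hyperoxia. Col26a1 fell by 0.96 at 24 h and rose by 1.77 and 1.69 in the oxygen arms.

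**Figure D4:**
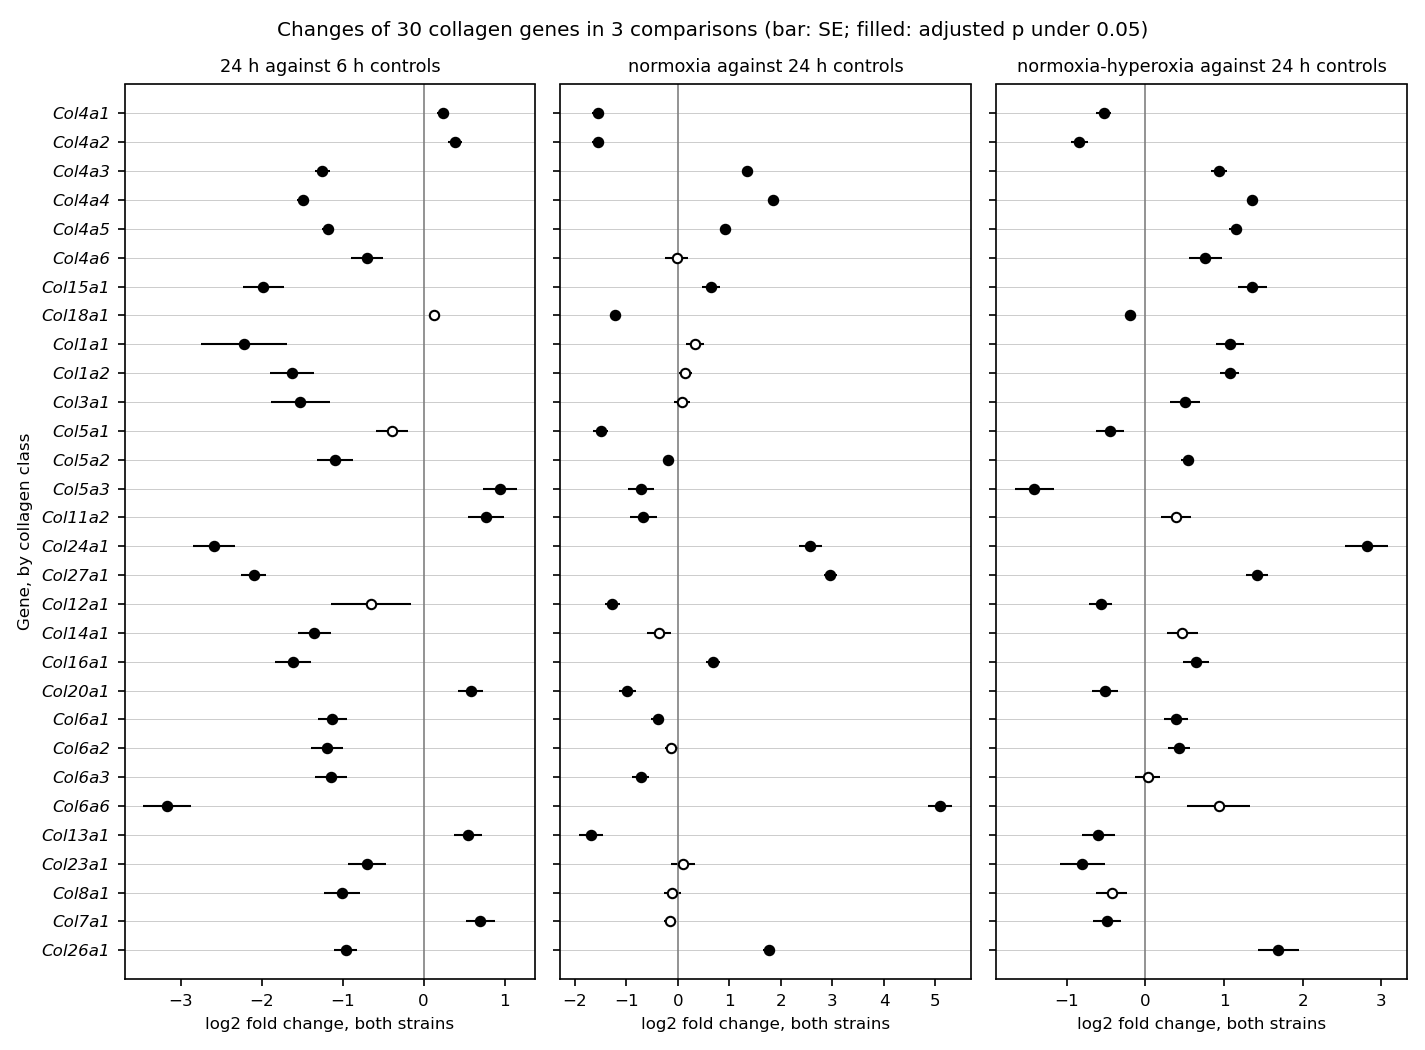
Log2 fold changes (x axis; points, edgeR estimates over both strains; bars, SE) of the 30 collagen genes with a mean of at least 1 CPM (24 h against 6 h controls, and each oxygen arm against 24 h controls), by class. Filled points have an adjusted p under 0.05; Col4a1 and Col4a2 lie on the other side of 0 from Col4a3, Col4a4 and Col4a5 in all 3 panels, and Col6a6 has the widest span, from -3.17 to 5.09.

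Among the collagen genes called in both strains together, the largest rises under normoxia against 24 h controls were those of Col6a6, Col19a1 and Col27a1. Col6a6, a collagen VI chain of restricted tissue distribution, was at 52.2, 59.4 and 67.4 CPM in DBA/2J 6 h controls, 13.5, 8.07 and 12.3 CPM at 24 h, 122, 145 and 166 CPM under normoxia and 9.99, 8.72 and 7.27 CPM under normoxia-hyperoxia. The 6 h, 24 h and normoxia groups did not overlap. In DBA/2J it fell by 2.56 at 24 h (SE 0.186, edgeR adjusted p = 8.55e-08) and rose by 4 under normoxia (SE 0.192, adjusted p = 1.01e-09). In C57BL/6J it had 14, 15 and 22 counts at 6 h, 1, 3 and 0 counts at 24 h and 88, 115 and 110 counts under normoxia. The fitted fold changes of Col6a6 and Col19a1 over both strains depend on the prior count, since the C57BL/6J 24 h controls held 0 to 3 counts of Col6a6 and 1 count each of Col19a1, so DBA/2J values are given. Col19a1 was at 2.01, 1.86 and 2 CPM in DBA/2J 6 h controls, 0.208, 0.71 and 0.338 CPM at 24 h and 3.6, 3.91 and 4.46 CPM under normoxia, a rise of 3.53 against 24 h (adjusted p = 8.37e-08).

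Proximal tubule markers fell and rose with these genes between the control times and under normoxia. Under normoxia-hyperoxia 6 of 7 fell against 24 h controls, beside 34.1% of all genes, while Col27a1 rose. The 7 markers, which include megalin and cubilin, all fell at 24 h and all rose under normoxia, beside 37.4% and 42.4% of all genes. They summed to 2270 to 4760 CPM in C57BL/6J libraries and 5860 to 6850 CPM in DBA/2J at 6 h, 383 to 576 and 908 to 1970 CPM at 24 h, 4900 to 7630 and 12100 to 14000 CPM under normoxia, and 148 to 261 and 579 to 847 CPM under normoxia-hyperoxia. The part of these cells in the levels of Col6a6, Col19a1 and Col27a1 was not tested. Between the oxygen arms Col6a6 was lower under normoxia-hyperoxia by a log2 fold change of -4.14 (edgeR adjusted p = 4.03e-11), Col19a1 by -2.83 and Col27a1 by -1.53. Col27a1 stood above its 24 h controls under normoxia-hyperoxia, at 26.5, 26.7 and 36.2 CPM in C57BL/6J libraries and 46.2, 52.9 and 40.7 CPM in DBA/2J.

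The oxygen arms were also set against the 6 h controls, which share no time point with them. For normoxia, 28 of 34 tested collagen genes passed, 6 higher and 22 lower, beside 32.9% and 32.9% of 16819 genes, with a median of -1.05 against 0.02 for all genes. The largest falls were those of Col12a1, by 1.96, and of Col5a1 and Col1a1, each by 1.93. Without DBA/2J 6 h control replicate 1 the median was -0.77, and these genes fell by 1.05 (Col12a1), by 1.64 (Col5a1) and by 1.05 (Col1a1). The largest falls were then those of Col6a3, by 1.68, and Col14a1, by 1.65. With all libraries, Col4a1 fell by 1.36 and Col18a1 by 1.14, while Col4a4 rose by 0.31 (edgeR adjusted p = 0.00203), Col26a1 by 0.77, Col27a1 by 0.82, Col19a1 by 1.12 and Col6a6 by 1.87. Lower too were 6 of 8 fibroblast and pericyte, 5 of 5 tested myofibroblast, 7 of 7 endothelial and 6 of 6 podocyte markers. Of 7 proximal tubule markers 6 rose, of 6 distal nephron and collecting duct markers 1 rose and 3 fell, and of 6 leukocyte markers 3 rose and 2 fell. Their part was not tested. For normoxia-hyperoxia, 21 of 36 passed, 3 higher (Col9a3, Col11a2 and Col26a1) and 18 lower, beside 22.4% and 22.5% of 16841 genes, with a median of -0.53 against 0.02 for all genes. The largest falls were those of Col6a6, by 2.23, Col6a5, by 1.79, and Col19a1, by 1.66. The median was -0.26 without DBA/2J 6 h control replicate 1, Col6a5 had a log2 difference of -1.25 that did not pass the test (edgeR adjusted p = 0.203), Col6a6 fell by 2.28 and Col19a1 by 1.65. Without DBA/2J 6 h control replicate 1, the counts were 27 of 36 (6 higher, 21 lower) and 19 of 38 (4 higher, 15 lower). The call gained among the higher is Col2a1, with 1 to 4 counts in the 6 h controls and 3 to 13 under normoxia-hyperoxia, which passed the low-count filter with that library left out.

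In the edgeR fits without a replicate block, no collagen gene passed the adjusted threshold for either drug. Tunicamycin at 6 h gave 0 of 36 in edgeR (0.0% of all genes higher and 0.0% lower) and 0 in DESeq2. At an unadjusted p under 0.05 there were 3, beside 1.7% of all genes. Without DBA/2J control replicate 1 there were 0 at that p, and without DBA/2J control replicate 2 there were 9. At 24 h tunicamycin gave 0 of 35, beside 0.97% of genes higher and 0.408% lower, and 0 in DESeq2. At an unadjusted p under 0.05 there was 1, beside 12.9% of all genes. With the replicate number as a block, edgeR called 1, Col6a6, as higher. Its DBA/2J means were 11.2 CPM with the drug and 11.3 CPM in controls, and in C57BL/6J 1 treated library held 40 counts and the others 1 each. Without DBA/2J tunicamycin replicate 2, 9 collagen genes had an unadjusted p under 0.05, all higher, and 0 were called. Without replicate 1 of that group, which stood apart for Col1a1, 1 was higher and 1 lower at that p. There 0 were called, and the median was 0.03. Of 18 tested genes for collagen modification in the endoplasmic reticulum, 2 rose with tunicamycin at 24 h: P3h1, a prolyl 3-hydroxylase, by 0.62 (adjusted p = 0.00766), and Ppib, its cyclophilin B partner, by 0.36 (adjusted p = 0.0131). Cyclosporin A at 24 h gave 0 of 33, beside 0.0% higher and 0.0% lower, and 0 in DESeq2. At an unadjusted p under 0.05 there were 0, beside 6.56% of all genes. Without DBA/2J cyclosporin A replicate 3, which stood apart for Col1a1, 4 were lower at that p, 0 were called and the median was -0.13. The replicate block gave 2 lower at that p and 0 called.

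Cyclosporin A at 6 h gave 0 of 35 in edgeR, beside 0.0% higher and 0.0% lower, but 14 of 35 collagen genes had an unadjusted p under 0.05 (13 lower, 1 higher), against 4.44% of all genes. Their median was -0.24. DESeq2 called 2, Col6a3 and Col14a1, both lower. Col14a1 was at 137, 76.5 and 124 CPM in C57BL/6J controls against 51.2, 53 and 45.1 CPM with cyclosporin A, and at 188, 120 and 141 against 55.5, 103 and 81.8 CPM in DBA/2J. Its groups did not overlap in either strain, and its log2 fold change was -1.01 (edgeR adjusted p = 0.336). In 4 of 35 collagen genes every treated library lay below every control of its strain, against 0.647% of all genes. Without DBA/2J control replicate 1, 9 of 36 were lower and 1 higher at an unadjusted p under 0.05. The fibroblast and pericyte markers summed to 190 to 242 CPM in C57BL/6J libraries and 189 to 250 CPM in DBA/2J with cyclosporin A, against 233 to 302 and 228 to 315 CPM in controls, and none of the 8 was called.

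The strains were tested against each other in the controls of both times and in the 2 oxygen arms, and some collagen genes differed in each. DBA/2J against C57BL/6J gave 10 of 34 genes in 6 h controls, 7 higher and 3 lower in DBA/2J, beside 13.6% and 12.7% of all genes. In 24 h controls it gave 6 of 34, 3 higher and 3 lower, beside 13.9% and 8.27%. Under normoxia it gave 24 of 35, 9 higher and 15 lower, beside 28.3% and 18.5%. Under normoxia-hyperoxia it gave 14 of 35, 7 higher and 7 lower, beside 14.3% and 11.3%.

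Col6a6 was higher in DBA/2J in all 4 arms tested. At 6 h it was at 0.783, 0.845 and 1.14 CPM in C57BL/6J against 52.2, 59.4 and 67.4 CPM in DBA/2J, a log2 fold change of 5.85 (SE 0.247, edgeR adjusted p = 5.78e-10). Summed over the 3 libraries the counts were 3471 and 51, a ratio of 63.7 (exact conditional 95% interval 48.3 to 85.7, counting error only). At 24 h the sums were 601 and 4 counts, a ratio of 151 (58.7 to 557), under normoxia 9706 and 313, a ratio of 28.8 (25.8 to 32.4), and under normoxia-hyperoxia 368 and 19, a ratio of 28.7 (18.1 to 48.3). No library of either strain overlapped the other in any arm. The neighbouring genes Col6a4 and Col6a5, on the same strand of chromosome 9 within 500000 bases, stayed at or below 0.918 and 1.17 CPM in all libraries. In the C57BL/6J tunicamycin group at 24 h, replicate 2 had 40 counts of Col6a6 and the other libraries 1 each.

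**Figure D5:**
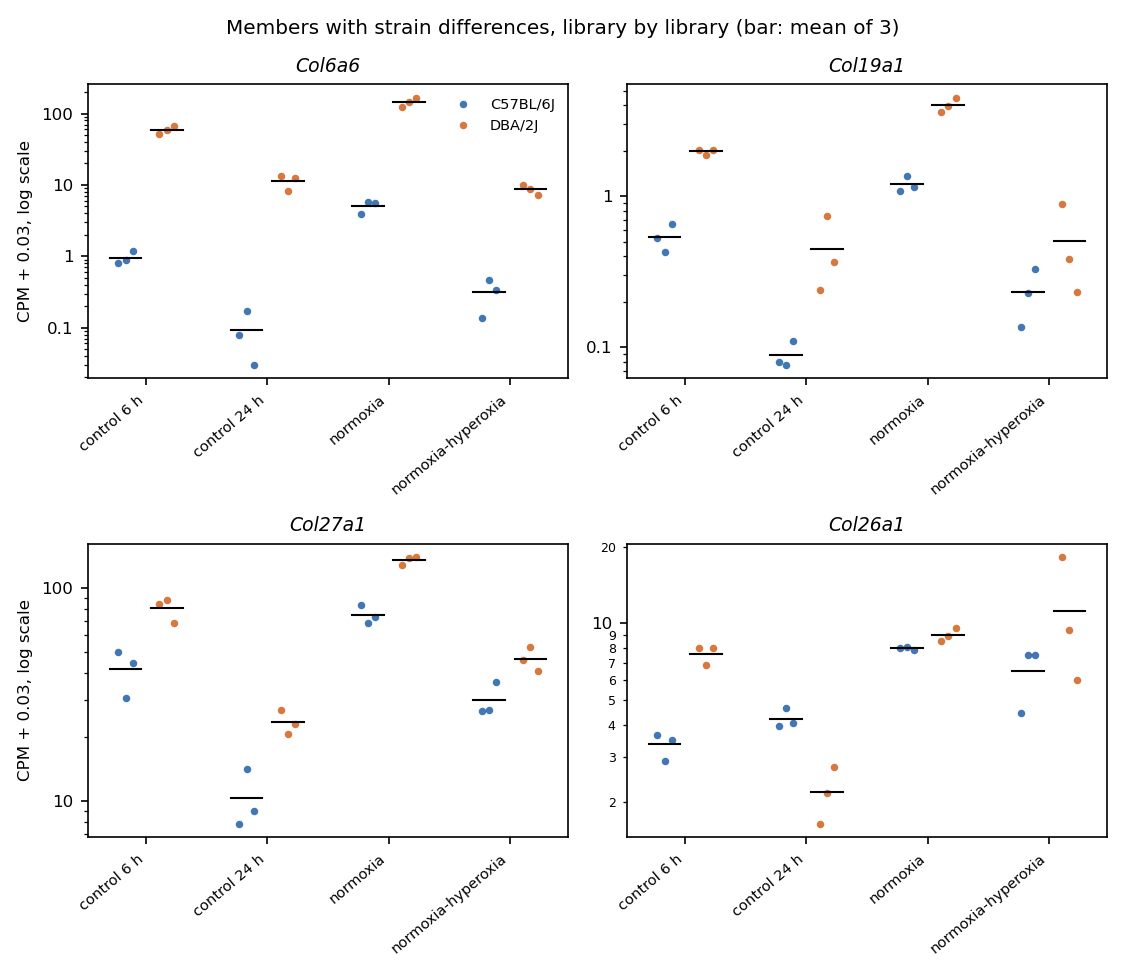
Col6a6, Col19a1, Col27a1 and Col26a1 in controls, normoxia and normoxia-hyperoxia (y axis: CPM + 0.03 on a log scale; each point 1 library; blue, C57BL/6J; orange, DBA/2J; bar, mean of 3). Col6a6 does not overlap between the strains in any arm, and Col26a1 is higher in DBA/2J at 6 h and lower at 24 h.

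Col5a2, the alpha 2 chain of collagen V, was lower in DBA/2J in all 4 arms tested. At 6 h it was at 58.1, 56.8 and 72.8 CPM in C57BL/6J against 37.9, 13.8 and 13.9 CPM in DBA/2J, a log2 fold change of -1.66 (edgeR adjusted p = 0.00263) that was -2.32 without DBA/2J 6 h control replicate 1. At 24 h it was at 36.9, 35.7 and 34.2 against 12.1, 11.4 and 10.8 CPM, a log2 fold change of -1.67 (adjusted p = 0.00351). Under normoxia it was at 54.2, 46.7 and 49.1 against 4.59, 3.86 and 4.12 CPM (-3.5, adjusted p = 5.09e-11), and under normoxia-hyperoxia at 108, 84.7 and 117 against 5.97, 7.12 and 6.92 CPM (-4.06, adjusted p = 1.22e-11). The ratio of summed counts, DBA/2J over C57BL/6J, was 0.0839 under normoxia (95% interval 0.0741 to 0.0948) and 0.0646 under normoxia-hyperoxia (0.0571 to 0.0727). In none of these 4 arms did the libraries of the strains overlap. They did overlap in the 24 h drug groups, which were not tested: the DBA/2J tunicamycin library at 70.2 CPM and the DBA/2J cyclosporin A library at 53.7 CPM, the same libraries that stood apart for Col1a1, lay above all C57BL/6J libraries of their arm (at most 43.1 and 36.3 CPM). Its neighbour Col3a1, whose 3′ end lies 24614 bases from that of Col5a2 on chromosome 1, had log2 strain differences of 0.12 at 6 h and -0.19 at 24 h, which did not pass the test. Without DBA/2J 6 h control replicate 1 its difference at 6 h was -0.84 (edgeR adjusted p = 0.0778). Col5a1, which assembles with Col5a2 in collagen V, was lower in DBA/2J under normoxia, with a log2 fold change of -1.08 (adjusted p = 0.0227), and its differences in the other arms, from -0.3 to 0.18, did not pass the test.

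The response of Col5a2 to the oxygen arms had opposite signs in the strains. In C57BL/6J it rose by 0.71 under normoxia and by 1.73 under normoxia-hyperoxia against 24 h controls, and in DBA/2J it fell by 1.11 and by 0.64. The difference between strains was -1.82 (edgeR adjusted p = 4e-06) and -2.37 (adjusted p = 4.08e-06). All 6 oxygen-arm libraries lay above the 24 h controls in C57BL/6J, and all 6 lay below them in DBA/2J.

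Further strain differences held in several arms. Col27a1 was higher in DBA/2J at 6 h (84.5, 88.1 and 68.2 against 50.3, 30.4 and 44.3 CPM, log2 fold change 0.8, edgeR adjusted p = 0.0141), at 24 h (1.14, adjusted p = 0.00347), under normoxia (0.93, adjusted p = 1.53e-05) and under normoxia-hyperoxia (0.54, adjusted p = 0.00455). Col19a1 was higher at 6 h (2.01, 1.86 and 2 against 0.503, 0.395 and 0.621 CPM, 1.79, adjusted p = 0.00277), at 24 h (23 against 3 summed counts, a ratio of 7.71, 95% interval 2.33 to 40.1) and under normoxia (1.84, adjusted p = 0.000362). Proximal tubule markers were also higher in DBA/2J in each of these arms, as given above. In the 24 h drug groups, not tested between strains, Col19a1 had 23 against 26 summed counts with tunicamycin (ratio 0.833, 0.454 to 1.52). With cyclosporin A it had 17 against 8 (2.23, 0.911 to 5.96). At 6 h the ratios were 6.23 with tunicamycin and 3.67 with cyclosporin A. Col26a1 was higher in DBA/2J at 6 h (7.99, 6.83 and 7.95 against 3.64, 2.87 and 3.47 CPM, 1.04, adjusted p = 0.00117) and lower at 24 h (1.61, 2.13 and 2.71 against 3.93, 4.64 and 4.04 CPM, -1.02, adjusted p = 0.00267).

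Among the collagen IV chains, Col4a4 was higher in DBA/2J at 6 h (0.49, edgeR adjusted p = 0.00211) and under normoxia (0.62, adjusted p = 6.86e-05), and Col4a3 under normoxia (0.65, adjusted p = 0.000387). Col4a5 was lower in DBA/2J at 24 h (-0.55, adjusted p = 0.00157) and under normoxia-hyperoxia (-0.52, adjusted p = 0.0023). Under normoxia, Col4a6 was lower by -1.16 (adjusted p = 0.00362). No strain difference was called for Col4a1, Col4a2 or Col18a1 in any of the 4 arms.

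Of 9 tested fibrillar collagens, 5 were lower and 3 higher in DBA/2J under normoxia, and 3 were lower and 3 higher under normoxia-hyperoxia. The shares of all genes were 18.5% lower and 28.3% higher, and 11.3% lower and 14.3% higher. Col1a1 was lower under normoxia (-1.51, edgeR adjusted p = 5.35e-07) and normoxia-hyperoxia (-1.09, adjusted p = 1.9e-05), with no overlap between the strains in either arm, and Col1a2, Col6a1, Col6a2 and Col15a1 were lower in both arms. Col16a1 was lower under normoxia (2.99, 3.7 and 3.95 against 14.3, 14.9 and 15.7 CPM, -2.01, adjusted p = 2.81e-07). In 6 h controls the log2 strain difference of Col1a1 was 0.01, and without DBA/2J control replicate 1 it was -1.69 (adjusted p = 0.00632). Without that library Col1a2 and Col6a2 also passed the test at 6 h, and Col9a3 and Col17a1 no longer did, giving 11 of 35. Fibroblast and pericyte markers summed to 84.3 to 112 CPM in DBA/2J against 173 to 203 CPM in C57BL/6J under normoxia, and to 150 to 182 against 188 to 254 CPM under normoxia-hyperoxia. Under normoxia 6 of 8 of these were lower and 1 higher in DBA/2J. Myofibroblast and smooth muscle markers summed to 39 to 56.2 CPM against 128 to 199 CPM there, with 5 of 6 lower, and 6 of 7 endothelial markers were lower. Under normoxia-hyperoxia no myofibroblast or endothelial marker was called. Of 8 fibroblast and pericyte markers 3 were lower and 0 higher in DBA/2J in that arm, and 5 of 6 leukocyte markers were higher. Their part was not tested.

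Higher in DBA/2J in the oxygen arms were Col8a1, Col17a1 and Col24a1. Col24a1 was at 5.57, 4.09 and 4.11 CPM in DBA/2J against 1.49, 0.756 and 1.92 CPM in C57BL/6J under normoxia-hyperoxia (1.67, edgeR adjusted p = 0.000792), and Col17a1 at 1.21, 1.42 and 1.15 against 0.0532, 0.119 and 0.151 CPM. At 6 h Col17a1 was also higher (2.39, 33 against 5 summed counts) and Col9a3 lower (-1.65, 11 against 30) in DBA/2J. Neither passed the test without DBA/2J 6 h control replicate 1. Under normoxia Col28a1 (-2.66, 4 against 27 summed counts) and Col23a1 (-2.47) were lower in DBA/2J. With so few counts, the fitted values of Col17a1, Col9a3 and Col28a1 depend on the prior count. Col9a3 and Col28a1 passed the low-count filter in only some fits. Under normoxia-hyperoxia the summed counts of Col17a1 were 52 and 7, a ratio of 11 (95% interval 4.99 to 28.8).

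The test of whether a response differed between strains gave few collagen genes for time in culture: 1 of 34, Col26a1 (0 higher and 1 lower in DBA/2J, beside 0.419% and 0.271% of all genes). The normoxia response against 24 h controls differed in 10 of 33, 4 higher and 6 lower in DBA/2J, beside 10.1% and 6.88%. The normoxia-hyperoxia response differed in 1 of 33, Col5a2, beside 0.95% higher and 0.481% lower. The difference between the oxygen arms differed in 7 of 35, 4 higher and 3 lower, beside 7.2% and 11%. Col26a1 fell by 1.99 at 24 h in DBA/2J and had a log2 difference of 0.07 in C57BL/6J. Under normoxia Col16a1 rose by 1.74 in C57BL/6J and had a difference of -0.37 in DBA/2J, and Col23a1 rose by 1.48 in C57BL/6J and fell by 1.27 in DBA/2J.

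The genes that act on collagens were counted on 5 lists. Of all genes, 34.7% rose and 37.4% fell with time, 42.4% and 39.7% under normoxia, and 34.1% and 34.1% under normoxia-hyperoxia, and several of the counts lie near these shares. Of 18 tested genes for modification and folding in the endoplasmic reticulum, 10 rose and 4 fell at 24 h against 6 h, while 3 rose and 12 fell under normoxia and 2 rose and 12 fell under normoxia-hyperoxia against 24 h controls. P4ha2, a catalytic subunit of collagen prolyl 4-hydroxylase, rose most with time, by 1.38, and fell by 2.25 under normoxia-hyperoxia. P4ha1, its paralogue, fell most under normoxia, by 2.54 (edgeR adjusted p = 9.35e-15). Colgalt2, a collagen galactosyltransferase, fell by 1.73 with time and rose by 1.43 and 1.78 in the oxygen arms.

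Of 14 tested genes for processing and cross-linking outside the cell, 6 rose and 7 fell with time, 2 rose and 9 fell under normoxia, and 3 rose and 7 fell under normoxia-hyperoxia. Pcolce2, an enhancer of procollagen C-proteinase, rose by 2.37 with time and fell by 2.81 under normoxia-hyperoxia, and Lox, lysyl oxidase, fell by 2.84 under normoxia. Adamts3, a procollagen N-proteinase, fell by 1.47 with time and rose by 1.95 under normoxia-hyperoxia, and Pcolce rose by 0.92 under normoxia. Of 9 tested collagen receptors, 3 rose and 3 fell with time, 3 rose and 5 fell under normoxia, and 4 rose and 4 fell under normoxia-hyperoxia. Itga2 and Itga1, alternative alpha chains of collagen-binding integrins, moved apart: Itga2 rose by 2.8 with time and fell by 4.46 and 2.75 in the oxygen arms, and Itga1 fell by 1.93 and rose by 1.86 and 1.57.

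Of 15 basement membrane partners, 5 rose and 6 fell with time, 1 rose and 11 fell under normoxia, and 6 rose and 6 fell under normoxia-hyperoxia. Lamb3, the laminin beta 3 chain, rose by 4.27 with time and fell by 4.23 under normoxia and fell by 4.87 under normoxia-hyperoxia. Lama1, the laminin alpha 1 chain, fell by 2.4 with time and rose by 2.96 under normoxia. Of 7 tested proteoglycans that bind fibrils, 0 rose and 5 fell with time, 4 rose and 2 fell under normoxia, and 4 rose and 1 fell under normoxia-hyperoxia. Prelp fell by 2.03 with time, Aspn rose by 1.67 and 1.93 in the oxygen arms and Dcn, decorin, fell by 1.3 and 0.52.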

How the data were processed

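The deposited table holds raw read counts per gene for 48 libraries of mouse kidney slices, 3 in each of 16 groups, with totals of 5619309 to 25137581. Per the submitters' processing notes, the tools included bcl2fastq 2.20.0, FastQC 0.11.8, STAR 2.7.9a and featureCounts 1.5.1, with the GRCm38 build. The libraries were stranded mRNA preparations, per the labels' protocols; the strand setting of the counting and the annotation release are not given in the sources used here, so counts of overlapping or antisense genes are uncertain, as where Col4a1 and Col4a2 overlap at their starts. Both strains were aligned to 1 build, that of C57BL/6J, and its effect on DBA/2J counts was not tested. Symbols were matched for 55141 of 55487 gene IDs.

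CPM values used library totals. Fold changes came from edgeR 4.0.16 (with limma 3.58.1, in R 4.3.3): TMM factors, filterByExpr, a robust quasi-likelihood fit of 12 libraries per comparison and Benjamini-Hochberg adjustment over all genes tested, called at 0.05. A count of changed genes rests on 3 libraries per group, and intervals of count ratios cover counting error only. The scripts were tested on simulated data. Exon lengths are unions over GENCODE exons. The collagen genes follow from a rule on names alone, but that rule and the gene lists were chosen with earlier results of these data known. Named were the genes that passed the filter with a mean of at least 1 CPM over all libraries, and in each comparison the 3 called genes of each direction with the largest fold change; values in every library are given for the chains of collagens I, III, IV, XV and XVIII and for the 5 strain differences of lowest p. Genes of other lists are those with the largest called rise and fall; 1 such value is not reported here. Further values were chosen after they were seen. Alternatives were other scalings, no filter, DESeq2 1.42.0, a replicate block, 1 fit of 48 libraries and leaving out each library.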

Additional observations from a re-analysis of the deposited data

Results flagged for a closer look

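In 19 cases a collagen gene's response differed between the strains by an interaction test in edgeR with adjustment over all genes. Values are log2 differences, DBA/2J response minus C57BL/6J response. For 24 h against 6 h controls the difference was -2.06 for Col26a1 (edgeR adjusted p = 0.00232).

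For normoxia against 24 h controls, the difference was positive for Col4a4 (0.66), Col4a3 (0.97), Col4a5 (0.46) and Col26a1 (1.27). All 4 rose in both strains and rose further in DBA/2J. It was negative for Col5a2 (-1.82), Col16a1 (-2.11), Col23a1 (-2.75), Col5a1 (-1.23), Col12a1 (-0.99) and Col6a1 (-0.96). Col5a1 and Col12a1 fell in both strains and fell further in DBA/2J, while Col5a2 and Col23a1 rose in C57BL/6J and fell in DBA/2J.

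For normoxia-hyperoxia against 24 h controls the difference was -2.37 for Col5a2. Between the oxygen arms it was -0.56 for Col5a2, -0.63 for Col4a4, -0.72 for Col4a3, 1.57 for Col16a1, 0.86 for Col6a1, 1.74 for Col23a1 and 4.15 for Col6a4, a gene with at most 19 counts in any library.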

How the results depend on the processing

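The counts of called collagen genes stayed within 1.5 times under other scalings, no filter on low counts, DESeq2, a replicate block and 1 fit of all 48 libraries, with these exceptions. Without the filter, the strain difference of the response gave 7 genes for time, 22 for normoxia, 7 for normoxia-hyperoxia and 12 between the oxygen arms, and the strains differed in 16 genes in 24 h controls. DESeq2 gave 2 for cyclosporin A at 6 h, and 4 for the strain difference in time and 4 in normoxia-hyperoxia. Library totals as the only scaling gave 2 for the strain difference in normoxia-hyperoxia. The fit of 48 libraries gave 2 there, 4 for the strain difference between the oxygen arms and 9 for the strains under normoxia-hyperoxia.

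The deviations of same-numbered libraries had correlations from -0.139 to 0.366. In no comparison did all 6 pairs of both strains exceed 0.1, but all 3 pairs of a strain did in 2 comparisons for C57BL/6J (normoxia-hyperoxia against 24 h controls and tunicamycin at 6 h) and in 4 for DBA/2J (both oxygen arms against 6 h controls, the oxygen arms against each other and tunicamycin at 24 h). The labels do not say whether the numbers mark a shared source. With the replicate block, tunicamycin at 24 h gave 1 gene, Col6a6, and the strain difference gave 2 for normoxia-hyperoxia and 12 between the oxygen arms.

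Leaving out 1 library at a time gave 29 to 32 genes for time, 21 to 24 for normoxia and 21 to 28 for normoxia-hyperoxia against 24 h controls, 26 to 30 between the oxygen arms, and 26 to 30 and 15 to 24 for normoxia and normoxia-hyperoxia against 6 h controls. Each drug comparison stayed at 0. The strains differed in 8 to 12 genes at 6 h, 6 to 9 at 24 h, 18 to 24 under normoxia and 9 to 17 under normoxia-hyperoxia, with 9 without DBA/2J normoxia-hyperoxia replicate 1. The strain difference of the response gave 1 to 2 for time, 8 to 13 for normoxia, 1 to 2 for normoxia-hyperoxia and 4 to 9 between the oxygen arms. For time it was 2 without C57BL/6J 6 h or 24 h control replicate 1 or DBA/2J 24 h control replicate 2. For normoxia-hyperoxia it was 2 without C57BL/6J 24 h control replicate 1 or 3, DBA/2J 24 h control replicate 2 or DBA/2J normoxia-hyperoxia replicate 3. Between the arms it was 4 without C57BL/6J normoxia replicate 2 or 3, DBA/2J normoxia replicate 1 or 2, C57BL/6J normoxia-hyperoxia replicate 1 or 3 or DBA/2J normoxia-hyperoxia replicate 3.

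For normoxia against 24 h controls, library totals turned the uncalled values of Col1a2 to -0.13 and Col3a1 to -0.19, and leaving out C57BL/6J 24 h control replicate 1 turned Col3a1 to -0.04, with a range of -0.04 to 0.24 over single libraries left out. That scaling moved the all-gene median to 0.19 for time, -0.22 for normoxia, -0.17 for normoxia-hyperoxia and 0.11 between the arms, with collagen medians of -0.84, -0.4, 0.3 and 0.81. The causes were not tested. Genes with few counts are limited by depth, and the shallowest library is in the DBA/2J normoxia-hyperoxia group.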
